A study of Arabidopsis thaliana with 16 samples.

Results

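The 9 B-type cyclin genes of Arabidopsis thaliana examined here, 4 of the CYCB1 group, 4 of the CYCB2 group and 1 of the CYCB3 group, were taken by locus from 27444 protein-coding genes on chromosomes 1 to 5, by a rule that uses no measured value, though the family was picked with earlier results of these data known. Every deposited peak that reached into a gene body or the 500 bp on either side was assigned to that gene. Chromatin immunoprecipitation and sequencing of H3K4me3 and H3K27me3 had been done on guard cells in 2 genotypes. The first, called FAMA-LGK here, was the fama-1 mutant carrying FAMAp:FAMA-LGK, a FAMA-LGK construct driven by the FAMA promoter, so that its expression follows the activity of that promoter. The other was wild type (WT). Cells of both came from aerial tissue of 12-day-old seedlings, from which protoplasts were made and guard cells were sorted by fluorescence. The label calls the cells of both genotypes guard cells, and the series describes those of FAMA-LGK as genetically reprogrammed. Each mark in each genotype had 2 ChIP and 2 input libraries but only 1 peak list, so no replicate error exists for any value below and no difference between genotypes could be tested.

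B-type cyclins bind cyclin-dependent kinases (CDKs) and drive entry into and passage through mitosis. Their genes are transcribed around the G2/M transition under the control of three-repeat MYB factors, and the proteins are removed at anaphase by the anaphase-promoting complex (APC/C). In the stomatal lineage, the guard mother cell divides once into a pair of guard cells, which then normally leave the cell cycle. FAMA, a bHLH factor, acts with the retinoblastoma-related protein RBR1 in guard cell differentiation, and the LGK form is altered in its RBR1-binding motif. H3K4me3 is found near the start of transcribed genes, and H3K27me3 is the mark of Polycomb repression.

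The H3K4me3 lists held 15989 peaks in FAMA-LGK and 16036 in WT, and the H3K27me3 lists 7652 and 7386. The depth behind each list is unknown, since the lists give no read counts. Of 9 guard cell marker genes, H3K4me3 covered at least 150 bp of the gene body in 7 in FAMA-LGK and in 9 in WT, with summed covered lengths of 9814 bp and 21519 bp. GC1 and GORK stood at 0 bp in FAMA-LGK. These markers include FAMA (627 bp in FAMA-LGK, 2886 bp in WT), the gene that is itself mutated and carried as a construct in FAMA-LGK. Of 6 markers of stomatal precursors, 5 were covered in FAMA-LGK and 3 in WT (9273 bp and 5379 bp in sum), with EPF2 at 0 bp in both lists. Of 5 mesophyll markers, 3 were covered in FAMA-LGK and 4 in WT (5788 bp and 6485 bp in sum). Of these, CAB3 stood at 0 bp in both lists and RBCS2B at 0 bp in FAMA-LGK. The part of these other cell states in the cyclin values below was not tested. In sorted bulk cells, a mark on fewer cells and less of the mark per cell cannot be told apart.

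The H3K4me3 comparison asks which B-type cyclin genes are marked as transcribed chromatin usually is, in either guard cell state. H3K4me3 lay on 7 of the 9 genes in FAMA-LGK and on 6 in WT, where a gene is called marked if peaks cover at least 150 bp of its body, about 1 nucleosome. CYCB1;1 was the gene called in FAMA-LGK alone, none was called in WT alone, and CYCB2;1 and CYCB1;4 were called in neither. Over all protein-coding genes, 62.2% were called in FAMA-LGK and 62.2% in WT, 1.99% in FAMA-LGK alone and 2.03% in WT alone. Covered length below means all bp under peaks in the body plus 500 bp on each side. It was at least 150 bp longer in FAMA-LGK at 2 genes, at least 150 bp shorter at none, and within 150 bp at the other 7. Of all genes, 11.9% were longer and 8.94% shorter by that limit. Among the 16526 genes called in both genotypes, 16.1% were longer and 11.3% shorter. The median difference was 48 bp over the 9 genes and 0 bp over all genes. Over genes with any H3K4me3 in the window in either list it was 69.5 bp for 8 B-type cyclin genes, against 13 bp for all 19322.

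**Figure D1:**
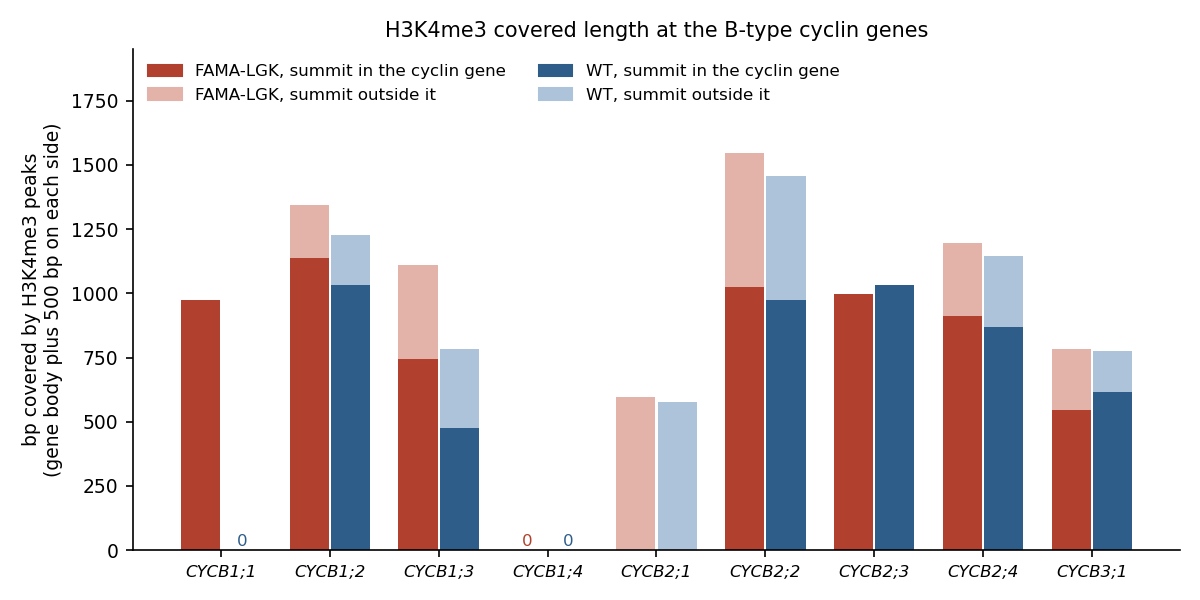
H3K4me3 covered length in bp (y axis) in the body plus 500 bp on each side of each B-type cyclin gene (x axis), with FAMA-LGK to the left of WT. Dark bars are peaks whose summit lies in the cyclin gene and pale bars peaks whose summit lies outside it. The first gene has 975 bp in FAMA-LGK and none in WT, the fourth has 0 bp in both, and the fifth has pale bars only, of 596 bp in FAMA-LGK, against 577 bp in WT.

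The CYCB1 group acts in the organisation of mitotic microtubules. CYCB1;1 (AT4G37490), whose reporter is widely used to mark dividing cells, also takes part with B1-type CDKs in the response to DNA damage. At this gene the covered length was 975 bp in FAMA-LGK, against 0 bp in WT. The FAMA-LGK peak lay on chromosome 4 from 17623388 to 17624362 (TAIR10), with 921 of its 975 bp inside the gene, and covered 38.0% of the body. Its fold enrichment over the control, as the authors' list gives it, was 2.00, and its −log10 q was 13.9. Only 3.68% of the peaks of that list had a lower −log10 q, so the peak that set this gene apart was itself among the weak ones of its list. The nearest WT H3K4me3 peak was 1683 bp from the gene. The call in FAMA-LGK alone was lost when only the stronger 50% of each list was kept or when 50% of the gene body had to be covered, as were all other H3K4me3 calls of the family.

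CYCB1;2 (AT5G06150, listed as CYC1BAT) was called in both genotypes, with covered lengths of 1343 bp in FAMA-LGK, against 1228 bp in WT. Its own peak, with the summit in the gene, ran on chromosome 5 from 1860599 to 1861736 in FAMA-LGK and from 1860707 to 1861740 in WT. The peak had a fold of 2.32 and a −log10 q of 23.9 in the FAMA-LGK list, and of 2.75 and 35.1 in the WT list. Thus the 2 lists placed this peak at almost the same site, one end of it lying 108 bp further into the gene in FAMA-LGK.

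CYCB1;3 (AT3G11520) had the second difference past the limit, with a covered length of 1112 bp in FAMA-LGK, against 784 bp in WT. Its own peak, on chromosome 3, was 743 bp wide in FAMA-LGK (3626456 to 3627198) and 474 bp wide in WT (3626657 to 3627130). The rest of its covered length came from peaks on either side whose summits lay outside the gene. The own peak was close to the floor of both lists, with a fold of 1.71 and a −log10 q of 8.32 in FAMA-LGK, and a fold of 1.53 and a −log10 q of 4.72 in WT. In the FAMA-LGK list, 0.938% of peaks had a lower −log10 q, and in the WT list 0.0561%. With peaks under a −log10 q of 5 left out, or with equal numbers of peaks per list, the WT peak was lost, the gene was called in FAMA-LGK alone, and its difference grew to 802 bp.

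CYCB1;4 (AT2G26760) had no peak of either mark in either genotype, as did 11.9% of all protein-coding genes. The nearest H3K4me3 peak lay 3948 bp from the gene in FAMA-LGK and 3673 bp in WT. The nearest H3K27me3 peak lay 6902 bp away in FAMA-LGK and 4070 bp in WT. The CYCB1 group therefore held both extremes, a gene with a peak in FAMA-LGK alone and the only one of the 9 with no peak at all.

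The CYCB2 genes form the second group of mitotic cyclins. In rice, a CYCB2 protein works with a B2-type CDK. CYCB2;1 (AT2G17620) had covered lengths of 596 bp in FAMA-LGK, against 577 bp in WT, of which only 96 and 77 bp lay in its body. All of it belonged to 1 peak per list with its summit in the adjoining gene PSAT2 (AT2G17630), a phosphoserine aminotransferase gene of serine synthesis. No peak had its summit in the cyclin gene itself. CYCB2;2 (AT4G35620) adjoins the related gene PSAT1 (AT4G35630), which again carried a peak in both lists (fold 5.31 in FAMA-LGK, 5.70 in WT). Here the cyclin gene also had an own peak, on chromosome 4 from 16901536 to 16902560 in FAMA-LGK and from 16901518 to 16902489 in WT. That peak was weaker than the one on the adjoining gene in both lists (fold 2.66 in FAMA-LGK, 2.80 in WT). The covered length at CYCB2;2 was 1548 bp in FAMA-LGK, against 1457 bp in WT.

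CYCB2;3 (AT1G20610) was the only B-type cyclin gene past the call with a shorter covered length in FAMA-LGK, 996 bp against 1033 bp in WT, a difference within the limit. It had the strongest own peaks of the family, with folds of 2.83 in FAMA-LGK and 2.90 in WT and −log10 q of 44.0 and 46.0. They lay on chromosome 1, from 7136859 to 7137854 in FAMA-LGK and from 7136843 to 7137875 in WT. No other H3K4me3 peak reached into its window. CYCB2;4 (AT1G76310) had 1194 bp in FAMA-LGK, against 1146 bp in WT. Its own peak lay on chromosome 1 from 28629664 to 28630574 in FAMA-LGK (fold 2.01) and from 28629737 to 28630603 in WT (fold 2.14). A stronger peak, with folds of 5.34 in FAMA-LGK and 5.25 in WT, had its summit in the next gene, FRS4 (AT1G76320). The 2 cyclin genes thus showed nearly equal lengths in both genotypes.

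CYCB3;1 (AT1G16330), the only B3-type gene of the family and one with a role in meiosis, is the longest of the 9 genes at 5075 bp and had the smallest marked share among those called. Peaks covered 9.62% of its body in FAMA-LGK and 9.69% in WT, where the median over all genes called was 43.5% and 42.4%. Its own peak lay at one end of the gene, on chromosome 1 from 5586974 to 5587520 in FAMA-LGK (fold 1.98, −log10 q 14.5) and from 5586970 to 5587583 in WT (fold 2.40, −log10 q 25.9). Its covered length was 784 bp in FAMA-LGK, against 776 bp in WT. The direction of that difference of 8 bp turned to -4 bp when the body alone was counted and to -67 bp when only the own peaks were counted.

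**Figure D2:**
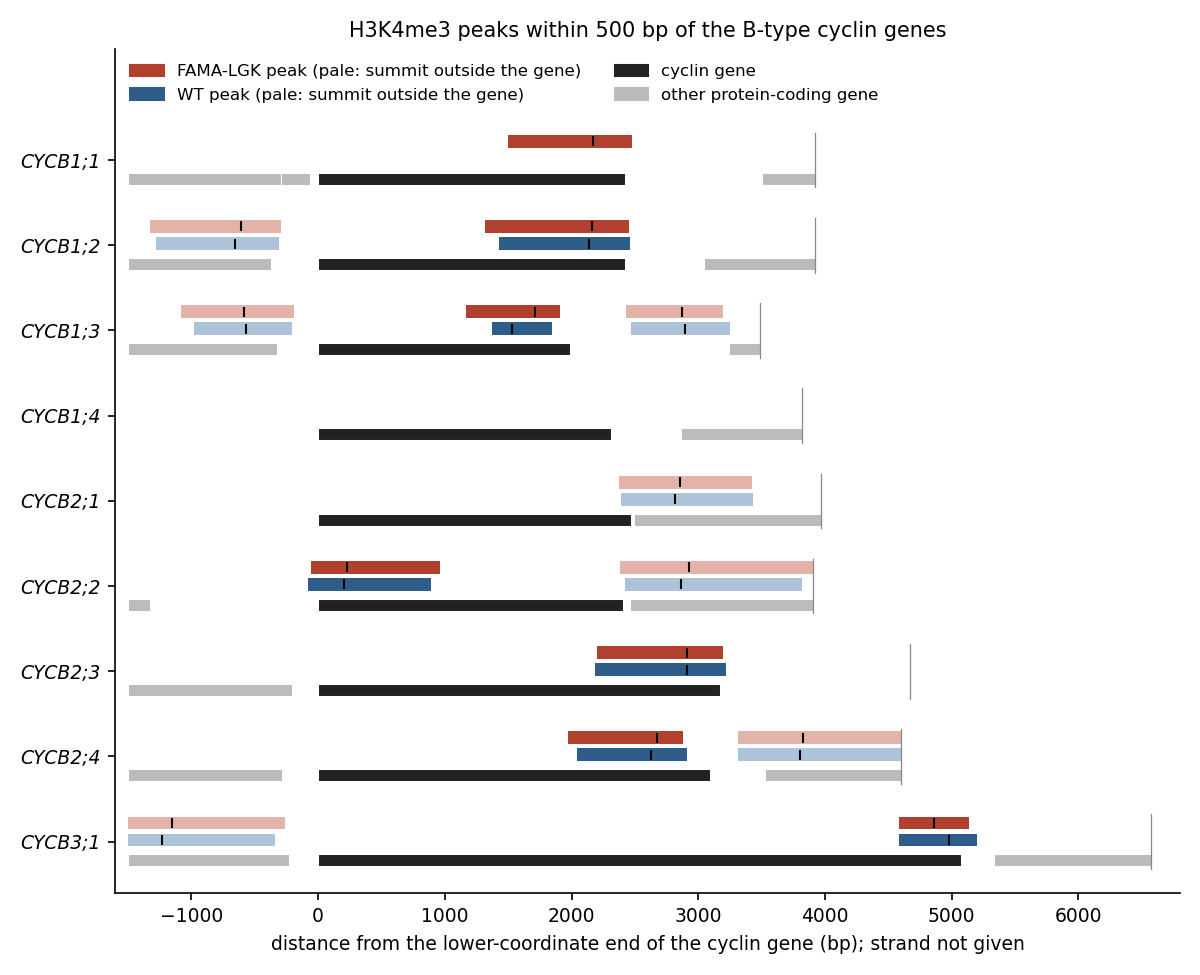
H3K4me3 peaks near each B-type cyclin gene against the distance in bp from the end of the gene with the lower coordinate (x axis), drawn to 1500 bp on either side, with FAMA-LGK above WT. Dark peaks have their summit (tick) in the cyclin gene, drawn black, and pale ones outside it. Own peaks sit near one end of the gene, in 6 of 7 FAMA-LGK cases and 5 of 6 WT cases the end with the higher coordinate, and the gene in the top row has one in FAMA-LGK only.

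The marked B-type cyclin genes shared the form of their H3K4me3. Each had 1 own peak per list, and its summit lay 210 to 420 bp inside the nearer end of the annotated gene in FAMA-LGK and 97 to 466 bp inside it in WT. The strand of the genes is not given in the gene table used here, so which end is the start was not read from these data. Own peaks were 547 to 1138 bp wide in FAMA-LGK (median 975 bp) and 474 to 1034 bp wide in WT (median 919.5 bp). The median widths over the whole lists were 1133 and 1115 bp. The widest own peak was that of CYCB1;2 in FAMA-LGK and also in WT, where CYCB2;3 came within 1 bp of it.

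Own peaks of the B-type cyclin genes lay in the weak part of both lists. In FAMA-LGK, the 7 own peaks had folds of 1.71 to 2.83 (median 2.01), and 0.938 to 14.6% of the list had a lower −log10 q. In WT, the 6 own peaks had folds of 1.53 to 2.90 (median 2.58), and 0.0561 to 14.7% of the list had a lower −log10 q. The 2 sets differ by the CYCB1;1 peak, and the whole lists also differed in median fold, 4.58 in FAMA-LGK and 5.04 in WT. Of the genes with an own peak in both lists, only CYCB1;3 had a higher fold and −log10 q in FAMA-LGK. At the others both values were lower in FAMA-LGK than in WT, though covered length was mostly longer. The 7 peaks per list in the same windows with summits outside the cyclin genes were stronger, with folds of 3.41 to 5.83 in FAMA-LGK and 3.46 to 6.76 in WT. The strongest of these lay on AT1G16320, next to CYCB3;1. In both lists the own peaks and the adjoining ones did not overlap in fold or in −log10 q. All 7 own peaks in FAMA-LGK and all 6 in WT belonged to the weakest 25% of the listed peaks. Among all genes with an own peak, the strongest was in that lowest 25% in 23.1% (FAMA-LGK) and 22.9% (WT).

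**Figure D3:**
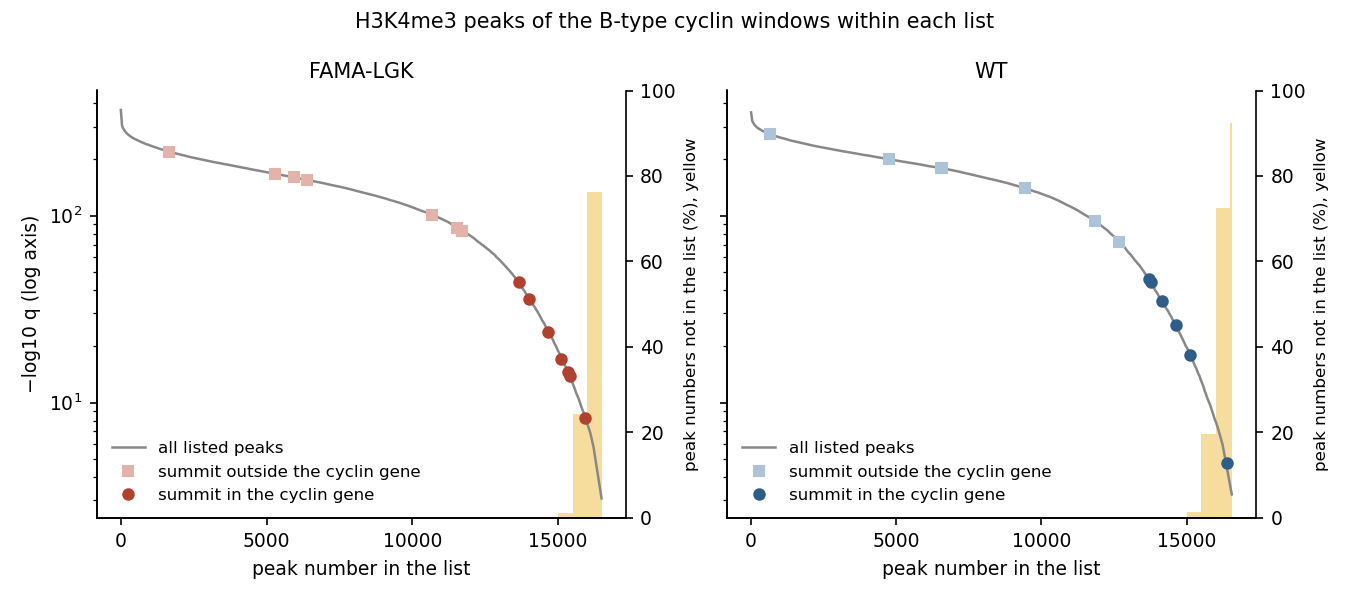
The −log10 q of H3K4me3 peaks (left axis, log scale) against the peak number in the list (x axis), for FAMA-LGK on the left and WT on the right. Yellow bars give the percentage of numbers not in the list, in steps of 500 numbers (right axis). Own peaks of the B-type cyclin genes (circles) fall at the weak end of both curves, at −log10 q of 8.32 to 44.0 in FAMA-LGK and 4.72 to 46.0 in WT, next to the numbers that are missing.

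This position bears on how far an absent peak can be read. Peak names carry numbers that run in order of −log10 q, up to 16491 in FAMA-LGK and 16553 in WT, and 502 and 517 numbers are not in the lists. The lowest missing number was 14894 in FAMA-LGK and 15173 in WT, so all the missing ones stand at the weak end. At or below the −log10 q of the peak found in FAMA-LGK alone, 589 of 1089 numbers were listed in FAMA-LGK and 604 of 1116 in WT. At or below that of the WT peak of CYCB1;3, 13 of 155 were listed in FAMA-LGK and 10 of 163 in WT. The CYCB1;1 peak was number 15403 in FAMA-LGK, where 1.2% of numbers 15001 to 15500 were missing. In WT, number 15446 had a −log10 q of 13.8, and 1.4% of numbers 15001 to 15500 were missing. From 16001 to 16500, 72.6% were missing in WT. A weaker WT peak at CYCB1;1 could thus have been among those left out, while few numbers of like strength were. The labels name the lists as final and replicated, but the rule by which peaks were left out is not given in the sources used here. How reads shared by related cyclin genes were placed is not given there either.

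The pattern of CYCB1;1 was counted over all genes. With 0 bp of H3K4me3 in WT, 1 FAMA-LGK peak in the window and no H3K27me3 in either list, it was 1 of 245 protein-coding genes, 0.893% of all. The reverse pattern, with 1 WT peak and 0 bp in FAMA-LGK, held for 217 genes, or 0.791%. Among the 245 genes, the 5 named ones nearest to CYCB1;1 in FAMA-LGK covered length were BZS1 (973 bp), CRK15 (959 bp), scpl10 (993 bp), IOS1 (949 bp) and BGAL2 (1012 bp). They differed from it by 2 to 37 bp there, and 0 bp in the WT list was a condition of their choice. They encode a B-box protein, a cysteine-rich receptor-like kinase, a serine carboxypeptidase-like protein, a receptor-like kinase and a beta-galactosidase.

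The H3K27me3 comparison asks whether the B-type cyclin genes carry the Polycomb mark in either state. None of the 9 genes had a listed H3K27me3 peak in its body or the 500 bp on either side, in either genotype. Peak numbers were missing from these lists too, 1444 of 9096 in FAMA-LGK and 1708 of 9094 in WT. The lowest missing number was 4824 in FAMA-LGK and 3726 in WT, so weak H3K27me3 peaks could have been left out. Of all protein-coding genes, 24.4% were called for H3K27me3 in FAMA-LGK and 24.4% in WT, 1.37% in FAMA-LGK alone and 1.39% in WT alone. Its covered length was at least 150 bp longer in FAMA-LGK in 5.91% of genes and shorter in 6.47%, and 66.8% had no peak in that window in either list. The nearest peak in FAMA-LGK was at CYCB2;2, 1433 bp from the gene, against 3098 bp in WT. The nearest in WT was at CYCB2;4, where the distance was 2237 bp in FAMA-LGK, against 2343 bp in WT. At CYCB2;3 the FAMA-LGK distance was 2964 bp and the WT distance 2803 bp. At CYCB3;1 the nearest peak was 12916 bp away in FAMA-LGK and 12640 bp in WT. At the gene with H3K4me3 in FAMA-LGK alone, the nearest H3K27me3 lay 5097 bp away in FAMA-LGK and 5288 bp in WT. The gene thus had neither mark listed in WT.

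The other genes of the pathway were read from 5 lists with 50 members, and 45 were called for H3K4me3 in FAMA-LGK and 44 in WT, where 62.2% of all genes were called in each genotype. By the 150 bp limit, 11 were longer in FAMA-LGK, 6 shorter and 33 within it, where 11.9% of all genes were longer and 8.94% shorter. The median difference was 25.5 bp over the 50 genes. Among the D-type cyclins, which bring cells into the cycle ahead of the mitotic ones, 10 of 10 were called in FAMA-LGK and 9 in WT, 4 were longer and 3 shorter. CYCD4;1 was called in FAMA-LGK alone (575 bp, and 0 bp in WT). Only 0.382% of the FAMA-LGK list had a lower −log10 q than its peak, against 3.68% for that of CYCB1;1. The CYCD4;1 peak thus stood closer to the floor, where more numbers were missing, and a WT peak of like strength could have been left out. CYCD6;1 of formative root divisions was the longest increase, with 1632 bp in FAMA-LGK, against 964 bp in WT, and CYCD4;2 the longest decrease with 575 bp and 1271 bp. Among the A-type cyclins, 8 of 10 were called in each genotype, 2 were longer and 1 shorter. CYCA1;1 had 1450 bp in FAMA-LGK, against 862 bp in WT, while CYCA2;4 had 1391 bp and 2474 bp. Among the B-, A- and D-type genes of these lists, the longest increase was that of CYCB1;1. The lowest B-type value was -37 bp, and no B-type gene was shorter by the limit, where 8.94% of all genes were. The 9 genes are too few to read that as a trait of the family.

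All 7 mitotic CDK and CDK-binding genes were called in both genotypes and stayed within 150 bp, from CKS2 with 639 bp in FAMA-LGK, against 758 bp in WT to CDKB2;2 with 945 bp and 835 bp. Of 8 APC/C genes, 7 were called in each genotype. The activator gene CCS52B was longer (2203 bp in FAMA-LGK, 2034 bp in WT), and the APC/C inhibitor gene UVI4 shorter (1090 bp and 1827 bp). No H3K4me3 peak had its summit in CCS52B in either list. The CCS52B difference was not past the limit with the gene body alone or with only own peaks counted, nor past a limit of 300 bp. Of 15 regulators and parts of the G2/M machinery, 13 were called in each genotype, 4 were longer and 1 shorter. The 4 longer became 1 with a limit of 300 bp, 2 with the stronger 50% of peaks and 10 with a limit of 1 bp, and the 1 shorter became 2 with 1000 bp flanks and 3 with a limit of 1 bp. HIK, which encodes a kinesin of cytokinesis, had 2101 bp in FAMA-LGK, against 1537 bp in WT. The strongest own peak of HIK was near the floor, with 1.84% of the FAMA-LGK list and 0.748% of the WT list below it in −log10 q. MYB3R1, one of the factors that control the B-type cyclin genes, had 1540 bp and 1847 bp. H3K27me3 was called on 3 of the 50 genes in FAMA-LGK and 2 in WT, where 24.4% of all genes were called in each genotype and 1.37% in FAMA-LGK alone. AUR2, an Aurora kinase gene, and MYB3R2 were called in both genotypes, and CYCD7;1, which acts in the division of the guard mother cell, in FAMA-LGK alone with 1301 bp against 0 bp in WT. Of the FAMA-LGK H3K27me3 list, 20.9% had a lower −log10 q than the CYCD7;1 peak. The missing H3K27me3 numbers limit how far its 0 bp in WT can be read.

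**Figure D4:**
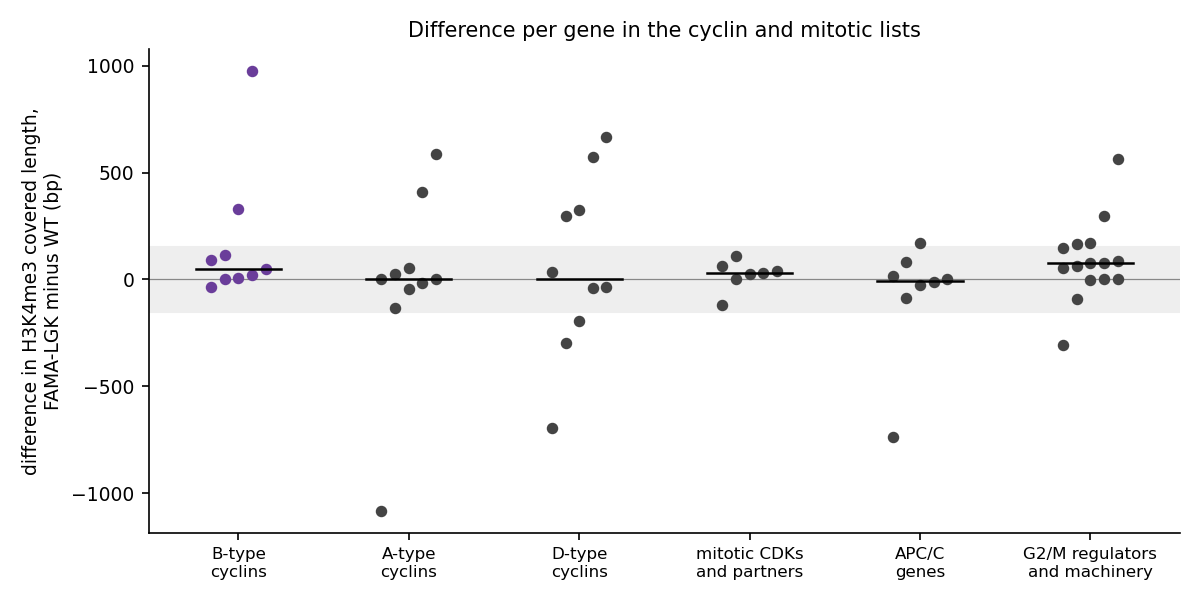
Difference in H3K4me3 covered length, FAMA-LGK minus WT in bp (y axis), for each gene of the B-type cyclin list (purple) and the other lists (grey), with the median as a line and the limit of 150 bp shaded. The highest point, at 975 bp, is a B-type gene, and the B-type and mitotic CDK lists have no point below the shaded band.

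Weak own peaks were also found elsewhere in the pathway. Of the 44 pathway genes with an own H3K4me3 peak in FAMA-LGK, the strongest was in the lowest 25% of the list in 28, and of the 42 in WT in 27. For the A-type cyclins these counts were 4 of 8 in FAMA-LGK and 3 of 8 in WT, and for the D-type cyclins 7 of 10 and 7 of 9. They were 5 of 7 and 5 of 7 for the mitotic CDKs and partners. For the APC/C genes they were 3 of 6 and 3 of 6, and for the G2/M list 9 of 13 and 9 of 12. The strongest own peak of CYCA3;4 had 85.2% of the FAMA-LGK list and 77.5% of the WT list below it, where the highest B-type values were 14.6% and 14.7%. The 4 B-type CDK genes stood in the same range as the B-type cyclins, with 1.61 to 14.5% of the FAMA-LGK list and 4.55 to 12.3% of the WT list below them. In the same gene list, CDKA;1 (45.7% in FAMA-LGK, 52.9% in WT) and CKS1 (37.9% and 44.6%) stood above that range. Whether the lists differ in this could not be tested with 1 list per mark and genotype.

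**Figure D5:**
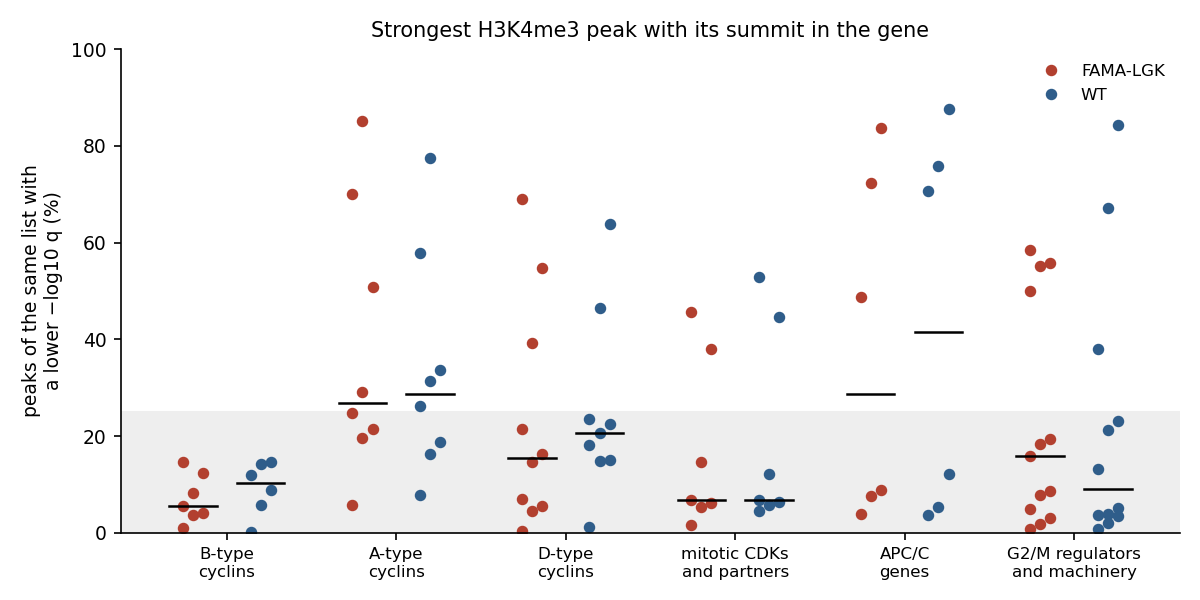
Percentage of peaks in the same H3K4me3 list with a lower −log10 q than the strongest own peak of each gene (y axis), by gene list (x axis), with FAMA-LGK to the left of WT, medians as lines and the lowest 25% shaded. B-type cyclin genes lie between 0.938 and 14.6% in FAMA-LGK and between 0.0561 and 14.7% in WT, all in the shaded band.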

How the data were processed

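Per the labels, each of the 4 deposited peak lists belongs to 1 mark in 1 genotype and stands for 2 ChIP libraries and 2 inputs. The submitters' processing notes name the build TAIR10 and, as tools, Bowtie2, MACS2 and CASAVA 1.8.2. What each did and with which settings is not given in the sources used here. The authors' lists, in narrowPeak form, give each peak a start, an end and a summit, a fold ratio of ChIP over control, a −log10 p-value and q-value, and a score that was not used. Fold and −log10 q served only to describe, rank or filter peaks within a list. Peak coordinates are printed as deposited, with the first base as 1.

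Genes came from a RefSeq table of TAIR10.1, which has no strand. Its fit to the peaks was checked on WT H3K4me3 summits, of which 96.3% lay inside protein-coding genes, and at most 69.2% after shifts of 500 to 3000 bp. Peaks that touched were merged, and covered bp were counted with Python 3.11.15 and pandas 2.3.3, with code tested on simulated peaks. An own peak has its summit inside the gene body. All 9 genes were named. Of the other lists, genes called in 1 genotype alone and the longest increase and decrease were named. The genes most like CYCB1;1 were taken by FAMA-LGK covered length among the genes with its pattern. CYCA3;4, AUR2, MYB3R2, CDKA;1, CKS1 and the CDKB genes were added after their values were seen. The members and lists were chosen with earlier results of these data known. Signal tracks were not used here. No test was possible, and 10 alternatives were computed.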

Additional observations from a re-analysis of the deposited data

How the results depend on the processing

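The counts for the B-type cyclin genes were recomputed under 10 alternatives for calls and, except for the requirement of 50% of the gene body, for lengths. With only the stronger 50% of each list kept, by −log10 q, no gene was called for H3K4me3 in FAMA-LGK or WT (0 and 0) and 0 were longer, because every own peak of the family is weaker than that. With 50% of the gene body required, the calls were again 0 in FAMA-LGK and 0 in WT. With any difference of at least 1 bp counted, 7 genes were longer in FAMA-LGK, 1 was shorter and 1 equal. In the other settings FAMA-LGK calls were 7 or 8 and WT calls 5 to 7, and CYCB1;1 was called in FAMA-LGK alone. The median difference ran from 0 to 73 bp, and H3K27me3 was called on 0 genes in every setting. For the 5 other lists together, calls with the 50% highest peaks were 11 in FAMA-LGK and 9 in WT, with 5 genes longer and 3 shorter. With 50% of the body they were 10 and 7, with at least 1 bp 28 were longer and 17 shorter, and with at least 300 bp 6 were longer. Of the values for single lists, 147 stayed within 1.5 times and 43 did not. Of those for single genes, 79 kept their class and 2 did not, CYCB1;1 and CYCB1;3 with the 50% highest peaks. No paired analysis was possible because each list pools its replicates, and for the same reason no replicate could be left out. Depth is unknown and limits every statement on an absent peak.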
